A study of Homo sapiens with 4 samples.

Results

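Circular RNAs from genes of cell adhesion and extracellular matrix were followed in radiation-resistant MDA-MB-468 cells, an established human breast cancer line. Members were the circles whose named genes included a numbered integrin alpha or beta chain, a laminin chain, a collagen chain, a numbered cadherin, PTK2, VCL or TLN1, with antisense circles left out. The rule found 757 circles of 36 genes among 211599 circles, and 696 circles of 34 genes had at least 1 count. They held 5402 of 1702290 counts, which is 0.317%. COL6A6 and COL4A6 had circles listed with 0 counts in every library. Another 121 antisense circles named a member gene and held 272 counts.

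The study compared a control arm with a knockdown arm, each with 2 biological replicates per its design text. All 4 libraries came from cells that had survived a total dose of 50 Gy, so both arms share the radiation selection. Controls carried a control hairpin RNA. Knockdown cells stably carried a hairpin directed at HNRNPL, which binds RNA and regulates splicing, and the labels' protocols name 1 such hairpin. The comparison asks which circles depend on HNRNPL. Circles were read on a nanopore instrument after random-primed reverse transcription with Induro, an enzyme that can travel around a circular template, and amplification with phi29 polymerase. No row used here named HNRNPL, so the knockdown itself rests on the labels. These are bulk libraries, in which fewer cells and less RNA per cell cannot be told apart.

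Integrins are receptors made of 1 alpha and 1 beta chain that bind the matrix outside the cell and the actin skeleton inside it. Laminins and collagens are among the matrix proteins they bind, and talin (TLN1), vinculin (VCL) and focal adhesion kinase (PTK2) assemble on their inner side. Cadherins instead join neighbouring epithelial cells. A circular RNA forms when the splice donor at the end of a downstream exon is joined back to the splice acceptor at the start of an upstream exon. Below, the upstream end of a circle is that acceptor side and the downstream end is the donor side, in the direction of transcription. The acceptor motif is AG and the donor motif is GT.

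Control replicate 1 stood apart before any test. Its counts were 19.7% intron circles, against 9.93% to 10.6% in the other 3 libraries, and 0.943% mitochondrial circles, against at most 0.107%. Totals ran from 282737 to 556578 counts, and 0 counts in a library allows up to 3, or 0.539 to 1.06 per 100000. The log2 counts of 4944 abundant circles correlated at r = 0.916 between the knockdown replicates and at r = 0.715 between the controls, as a description across circles. Amplified copies carry no molecular identifiers, so intervals and limits given here cover counting error only. Among the members, intron circles held 18.6%, 11.1%, 15.1% and 11.7% of the counts in control 1, control 2, knockdown 1 and knockdown 2, the order kept throughout.

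Summed over all members, circles made up 370, 340, 253 and 268 counts per 100000 of the library. Both knockdown libraries lay below both controls, at 260 ± 10.1 against 355 ± 21.1 (SD, n = 2), a ratio of 0.733. With scaling to library size, the median log2 fold change over all host genes was −0.57. Of all host genes, 36.6% had both knockdown libraries below both controls, so a drop on this scale is not particular to the members. The sum is given without a test, since the exact permutation test of 2 against 2 libraries cannot go below p = 0.333. PTK2 alone held 2698 counts, and without it the sums were 210, 142, 130 and 141, so that the gap between control 2 and the knockdowns was small. Exon circles of the members gave 301, 302, 215 and 236. On this scale their 2 controls were close together and above both knockdown libraries. Exon circles of the whole table were 70.9%, 84.9%, 85.7% and 85.6% of the library totals, so the closeness of the controls depends on the scale. Intron circles gave 69.0, 37.9, 38.2 and 31.2, with control 1 far above the other 3.

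Counts were concentrated in few genes. PTK2 had 190 circles, ITGB1 113, ITGB8 65, ITGA6 56 and ITGB6 47. Focal adhesion genes held 51.9% of member counts, integrin beta chains 34.5%, integrin alpha chains 5.72%, collagens 3.52%, laminins 3.33% and cadherins 1.00%. Only 18 of the 36 genes had the 10 counts over the 4 libraries that were needed for a test, and 86 of the circles did.

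**Figure D1:**
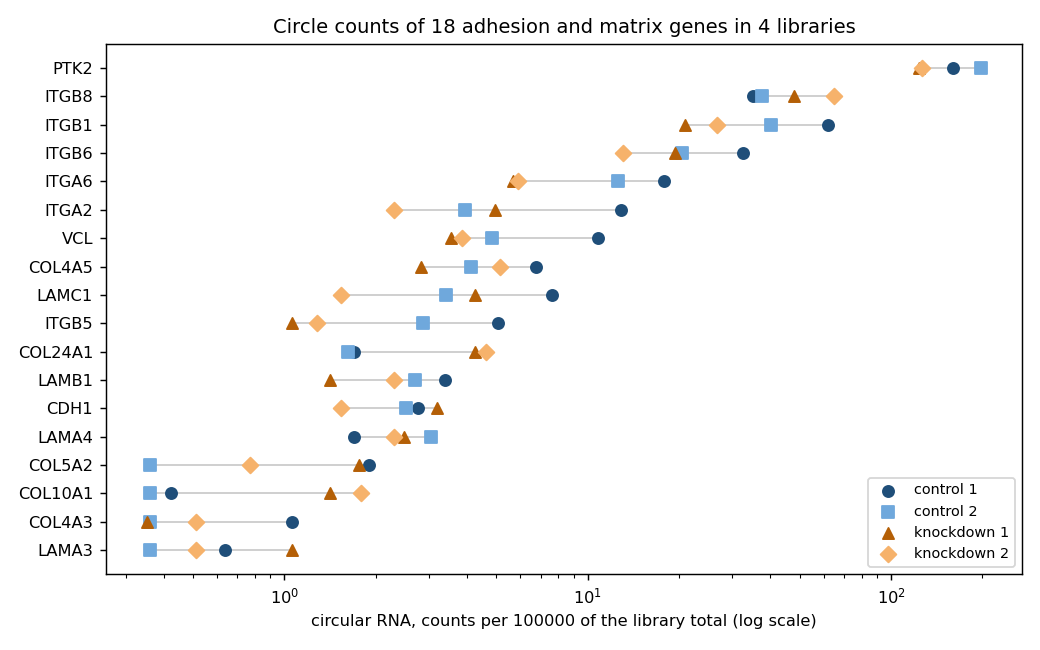
Circular RNA of the 18 tested genes in each library, as counts per 100000 of the library total on a logarithmic axis, with 1 point per library and a grey line over their range. PTK2 is highest at 123 to 198, ITGB8 has both knockdown libraries above both controls, and ITGB1, ITGA6 and ITGB5 have them below.

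Knockdown and control were first compared per gene, on counts summed over all circles of the gene. With edgeR's quasi-likelihood test and TMM scaling, 0 of 18 members passed an adjusted p of 0.05, against 38 of 8516 host genes (0.446%). At an unadjusted p under 0.05 there were 3 members, where the share over all host genes was 13.8%. ITGB8 and COL24A1 were higher in the knockdown (7.61% of all host genes) and ITGA6 was lower (6.14%). DESeq2 and limma voom also called 0 members, with 1 and 2 at an unadjusted p under 0.05. DESeq2 gave an adjusted p only for VCL, ITGA6, ITGB8, ITGB6, ITGB1, ITGA2, PTK2 and COL4A5, so it could not call the other members. The median log2 fold change was −0.26 over the members and −0.26 over all host genes, and 11 of 18 (61.1%) lay under 0, beside 59.5% of all host genes. With scaling to library size alone, the medians were −0.58 and −0.57, with 12 members and 70.4% of all host genes under 0. As plain counts per 100000, 7 members (38.9%) had both knockdown libraries below both controls, beside 36.6% of host genes. In 3 members (16.7%) both lay above, beside 15.5%. These shares are near the background.

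The calls depended on single control libraries. Without control replicate 1, edgeR called 4 of 18 members, ITGA6 and PTK2 lower and ITGB8 and COL24A1 higher, where 20.0% of all host genes were called. Without control replicate 2 it called 6, with ITGB8 and COL24A1 higher and VCL, ITGA6, ITGB1 and ITGA2 lower, where 33.1% of all were called. These fits take their spread from the knockdown pair, and the lone control is assumed to vary in the same way. Without either knockdown library, 0 members were called. ITGA6, ITGB8 and COL24A1 were thus the members called against either control alone.

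**Figure D2:**
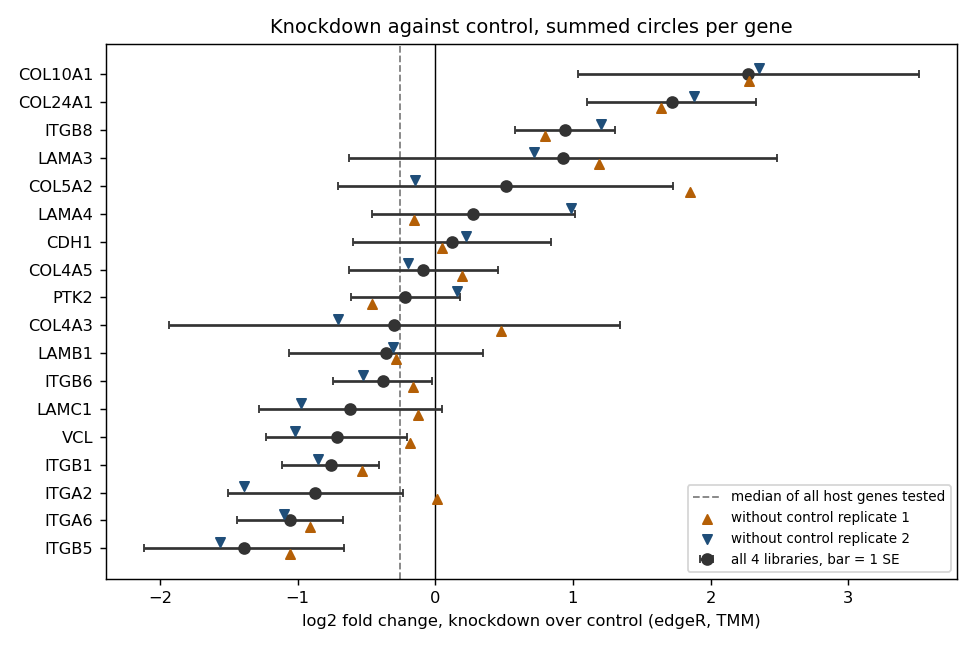
Log2 fold change of the summed circles of each tested gene, knockdown over control, from edgeR with all 4 libraries (dots, bars of 1 SE) and without control replicate 1 or 2 (triangles). ITGB8 and COL24A1 sit to the right of 0 and ITGA6 and ITGB1 to the left under all 3 fits, while PTK2, ITGA2, COL4A3, COL4A5, COL5A2 and LAMA4 cross 0 when a control is left out.

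The integrin beta chains did not share a direction. ITGB8 pairs with the alpha V chain and binds latent TGF-beta in the matrix. Its circles (chr7:20329766-20415754, plus strand) had 166, 209, 135 and 253 counts, or 35.1, 37.6, 47.7 and 64.8 per 100000. Both knockdown libraries were above both controls, at 56.3 ± 12.0 against 36.3 ± 1.71 (SD, n = 2). The log2 fold change of 0.94 ± 0.36 (SE) had an adjusted p of 0.315 in edgeR, and of 3.51e-08 to 0.921 over the alternatives. It was 0.80 without control 1 and 1.21 without control 2. Of these counts, 73.0% came from circles that also named ENSG00000200753, recorded as a small nucleolar RNA gene, and circles that named ITGB8 alone gave 0.55.

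ITGB1 is the chain shared by most matrix-binding integrins. Its circles (chr10:32900318-32958230, minus strand) had 293, 223, 59 and 104 counts, or 62.0, 40.1, 20.9 and 26.6 per 100000. Both knockdown libraries were below both controls, at 23.7 ± 4.07 against 51.0 ± 15.5 (SD, n = 2). The log2 fold change of −0.76 ± 0.35 (SE) had an adjusted p of 0.389 in edgeR, and of 0.00017 to 0.955 over the alternatives. The gap between the controls was wider than that between control 2 and either knockdown library.

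The ratio of ITGB8 to ITGB1 counts needs no scaling between libraries. It was 0.566, 0.937, 2.29 and 2.43, with a mean of 0.752 ± 0.262 for controls against 2.36 ± 0.102 for knockdowns (SD, n = 2). ITGB1 circles outnumbered those of ITGB8 in both controls, and the order was turned in both knockdown libraries. The pair was chosen after its values were seen. A ratio shows an unequal change and not which of the genes moved.

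ITGB6 pairs with the alpha V chain in epithelia and also binds latent TGF-beta. Its circles (chr2:160099671-160200272, minus strand) had 154, 114, 55 and 51 counts, or 32.6, 20.5, 19.5 and 13.1 per 100000. Control 2 and knockdown 1 were close, so the groups were barely apart, and the fitted log2 fold change was −0.38 ± 0.36 (SE). Its most abundant circle, of 6 to 7 exons (chr2:160169212-160200202), had 26, 15, 7 and 7 counts. ITGB5, a vitronectin receptor chain, had 24, 16, 3 and 5 counts, with a log2 fold change of −1.39 ± 0.73 (SE). Its leading circle, of 5 exons (chr3:124817621-124848558), had 5, 7, 2 and 1. Neither gene passed, with adjusted p of 0.662 for ITGB6 and 0.430 for ITGB5 in edgeR. Summed, the beta chains other than ITGB8 had 99.7, 63.4, 41.4 and 41.0 counts per 100000.

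Of the integrin alpha chains, 2 had enough counts, and neither passed the test. ITGA6, a laminin receptor chain (chr2:172427336-172506459, plus strand), had 84, 70, 16 and 23 counts. That is 17.8, 12.6, 5.66 and 5.89 per 100000, with the knockdown libraries close together and well below both controls. The log2 fold change of −1.06 ± 0.38 (SE) had an adjusted p of 0.294 in edgeR, and of 0.00326 to 0.921 over the alternatives. It stayed between −1.12 and −0.91 when any library was left out. No single circle carried the difference, since the leading one (chr2:172484782-172498100, isoforms of 681 and 1565 nt) had 7, 8, 3 and 1 counts, or 9.84% of the gene.

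ITGA2, a collagen and laminin receptor chain (chr5:52989352-53094779, plus strand), had 61, 22, 14 and 9 counts, or 12.9, 3.95, 4.95 and 2.30 per 100000. Control 1 was far above the other 3 libraries, and control 2 lay between the knockdowns. Its log2 fold change of −0.87 ± 0.64 (SE) became 0.01 without control 1. A single intron circle of ITGA2 (chr5:53003122-53007932, 4811 nt) had 22 counts in control 1 and 0 in each other library. ITGA9 had 6 counts, all in control 1, and ITGA3 had 3 and 1 counts in the knockdown libraries and 0 in the controls.

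PTK2 encodes focal adhesion kinase, which signals from integrins that have bound matrix. Its circles (chr8:140657900-141002079, minus strand) had 754, 1100, 349 and 495 counts, or 160, 198, 123 and 127 per 100000. Both knockdown libraries lay below both controls, at 125 ± 2.34 against 179 ± 26.9 (SD, n = 2), a ratio of 0.700. On the TMM scale the log2 fold change of −0.22 ± 0.40 (SE) had an adjusted p of 0.837 in edgeR, and of 0.0369 to 0.998 over the alternatives. It was −0.46 without control 1 and 0.16 without control 2, so the direction of the fitted value depends on which control is used. Circles that also named another gene held 32% of PTK2 counts.

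The circles of PTK2 fanned out from 1 upstream splice site. Position 140890769, at 111310 nt from the start of the 344180 nt gene, was the upstream end of 18 of its 102 exon circles and of 1675 of their 2409 counts (69.5%). The exon that begins there spans 227 nt (chr8:140890543-140890769). Circles starting there took 69.1% (Wilson 95% interval 65.4 to 72.6), 67.2% (64.2 to 70.0), 76.1% (71.1 to 80.5) and 70.8% (66.4 to 74.8) of the exon counts per library. The mean was 68.2% ± 1.35 for controls against 73.5% ± 3.77 for knockdowns (SD, n = 2), and the groups did not overlap. Among 1171 genes with at least 30 exon circles, the leading upstream end held a median of 37.5% of the counts, and 107 genes (9.14%) reached the share of PTK2 or more. The leading downstream end of PTK2 held 22.6%, below the median of 31.9% for those genes. The concentration lay on the upstream side.

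From that site the circles closed at successive downstream ends. The shortest span, to position 140879471, had 131, 220, 83 and 98 counts and was the most abundant member circle, with isoforms of 394 to 1666 nt and 2 to 3 exons. The circle to 140818277, with 8 to 9 exons, had 76, 137, 45 and 74 counts. The circle to 140846260, with 5 to 6 exons, had 83, 113, 29 and 49. Per 100000, its knockdown libraries lay at 10.3 and 12.5 and its controls at 17.6 and 20.3, with a log2 fold change of −0.78 ± 0.35 (SE, adjusted p 0.415 in edgeR). The circle to 140864312, with 3 to 4 exons, had 55, 67, 25 and 16 counts, and that to 140830472, with 6 exons and 680 nt, had 28, 36, 11 and 23. The 12-exon circle to 140789474 had 19, 30, 9 and 12. In these 4 circles both knockdown libraries were below both controls, as in 22.9% of all circles tested, and in the 2 most abundant ones the groups overlapped. Circles of 1 gene are not replicates. For the 140830472 circle, control 1 and knockdown 2 were nearly equal per 100000, and its fitted value ran from −0.73 to 0.05 when a library was left out. The abundances did not order by distance, since the circle closing at 72492 nt was more abundant than those closing at 26457, 44509 and 60297 nt.

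Within the shared site, the leading circle held a similar part of the counts in every library. The 140879471 circle took 29.6%, 32.5%, 35.2% and 30.6% of the site's counts, with overlapping groups. The 140846260 circle took 18.7%, 16.7%, 12.3% and 15.3%, lower in both knockdown libraries than in both controls. The circle with the farthest downstream end of the 11 most abundant, at 140700891 and 189878 nt away, joins 24 exons into 2531 nt. It had 1, 1, 4 and 9 counts, or 0.226%, 0.148%, 1.69% and 2.81% of the site. Its unadjusted p in edgeR was 0.0319 and its adjusted p was 0.317.

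**Figure D3:**
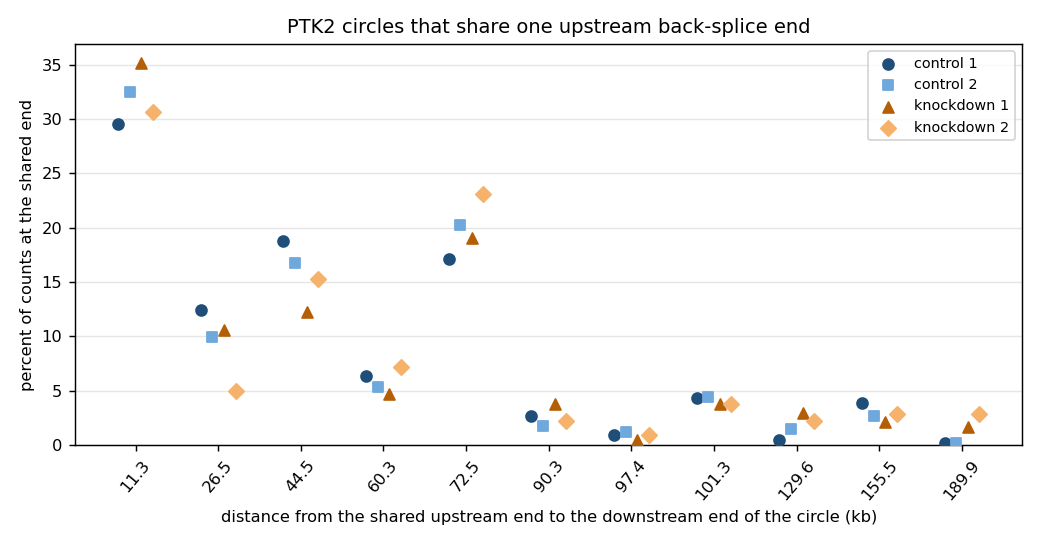
Share of the counts at the common upstream end of PTK2 taken by each of its 11 most abundant circles, in percent for each library, ordered by the distance in kb to the downstream end. The circle at 11.3 kb leads with 29.6% to 35.2%, that at 72.5 kb follows with 17.2% to 23.1%, and that at 189.9 kb is at most 0.226% in controls and at least 1.69% in knockdowns.

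A second upstream end of PTK2, at 140752316 and 249763 nt from the gene start, held 14.4% of the exon counts through 7 circles, with 91, 163, 30 and 63 counts. Most of these belonged to 1 circle of 6 exons and 698 nt (chr8:140735251-140752316), which had 73, 142, 21 and 42 counts. Both knockdown libraries were below both controls, at 9.09 ± 2.35 against 20.5 ± 7.11 per 100000 (SD, n = 2). In edgeR the log2 fold change of −1.19 ± 0.39 (SE) had an unadjusted p of 0.0223 and an adjusted p of 0.27. By comparison, the fitted value was −0.34 ± 0.32 (SE) for the 140879471 circle and −0.25 ± 0.34 (SE) for the 140818277 circle. The difference between these circles was covered by the test of circle use given further on, which PTK2 did not pass.

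Vinculin links talin to actin filaments. VCL circles (chr10:73998116-74121363, plus strand) had 51, 27, 10 and 15 counts, or 10.8, 4.85, 3.54 and 3.84 per 100000, with control 1 well above the rest. Its log2 fold change was −0.72 ± 0.51 (SE, adjusted p 0.549 in edgeR) and −0.18 without control 1. Only 41.7% of VCL counts were in exon circles, and its leading circle, of 9 exons and 1304 nt, had 2, 6, 2 and 1 counts. Talin, the protein that activates integrins from inside the cell, was represented by 1 intron circle of TLN1 with 4 counts in control 1 and 0 in the other libraries.

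Single circles were tested next. In edgeR, 0 of 86 member circles passed an adjusted p of 0.05, beside 0 of 21576 over the whole table (0.0%). At an unadjusted p under 0.05 there were 8 members, beside 13.6% of all circles. Of these, 4 were higher, beside 9.29% of all, and 4 lower, beside 4.26%. DESeq2 and limma voom called 0 members, with 5 each at an unadjusted p under 0.05. The fitted log2 fold change lay under 0 in 62 of 86 (72.1%), against 60.3% of all circles, and the median was −0.74 against −0.41. Some members passed the count filter through control 1 alone, such as the intron circle of ITGA2 above, which fixed their sign. Without control 1, 50 of 80 members lay under 0, beside 10446 of 19892 circles over the whole table. The medians were then −0.21 and −0.06. The groups did not overlap in 26 circles below (30.2%, beside 22.9% of all) and 16 above (18.6%, beside 23.2%). Without control 1, edgeR called 12 member circles (22.6% of all were called), and without control 2 it called 21 (29.9%). With a filter of 5 counts in each of 2 libraries, edgeR called 2 of 39 member circles, 1 of COL24A1 and 1 of ITGB1, where 12.1% of all circles were called.

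By host gene, 25 of 32 tested circles of PTK2, 14 of 17 of ITGB1, 8 of 10 of ITGB6 and 3 of 3 of ITGA6 had a log2 fold change under 0. ITGB8 had 8 of 18 under 0, with a median of 0.35. The median of the ITGB1 circles was −1.57 and that of the PTK2 circles −0.66. Circles of 1 gene are not replicates, and some passed the count filter through the controls alone, which fixed their sign. Summed per gene, the log2 fold change was −0.76 for ITGB1, −0.22 for PTK2 and 0.94 for ITGB8.

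The member circle with the smallest p came from COL24A1 (chr1:86124845-86146183, 2 exons, 1435 nt). It had 1, 3, 8 and 14 counts, with both knockdown libraries above both controls. In edgeR the log2 fold change of 2.96 ± 0.74 (SE) had an unadjusted p of 0.0074 and an adjusted p of 0.177. Its adjusted p ran from 0.00317 to 0.699 over the alternatives. It held 55.3% of all counts of COL24A1, which were 8, 9, 12 and 18. The gene-level value of COL24A1 is therefore not a separate result from this circle.

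ITGB8 supplied 3 of the 5 higher circles with the smallest p. The 3-exon circle chr7:20367012-20380831 had 15, 36, 26 and 49 counts, or 3.18, 6.47, 9.20 and 12.5 per 100000, and a log2 fold change of 1.15 ± 0.43 (SE, adjusted p 0.335 in edgeR). The 7-exon circle chr7:20363637-20394985 had 4, 7, 6 and 18 counts. An 11-exon circle classed as intron type, chr7:20340273-20404853, had 0, 1, 3 and 6 counts. The most abundant ITGB8 circle, chr7:20363637-20381885 with 5 exons and 833 nt, had 35, 51, 33 and 63 counts and a log2 fold change of 0.70 ± 0.37 (SE). In each of these 4 circles, both knockdown libraries lay above both controls per 100000, as in 23.2% of all circles tested. The first 3 were picked as higher by their p in these data, which favours such a separation. Of the 18 tested ITGB8 circles, 8 had a log2 fold change under 0.

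At the lower end were 2 circles of ITGB1. The 9-exon circle chr10:32911970-32929931 had 8, 15, 0 and 1 counts, with a log2 fold change of −3.71 ± 1.15 (SE, adjusted p 0.252 in edgeR). Its recorded splice motif was AG-AT with non-zero offsets at both ends, not AG-GT. The 5-exon circle chr10:32912105-32922735 had 12, 2, 0 and 0 counts, at least 1.59-fold lower in the knockdown when each of its libraries is set to the 3 counts that 0 allows. That bound rests on control 1, and without it there is none, since control 2 had fewer than 3 counts. The most abundant ITGB1 circle, chr10:32908368-32935558 with 14 exons and 2331 nt, had 33, 28, 7 and 21 counts and overlapped between groups.

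The other 2 lower circles, beside that of PTK2 at 140752316, came from ITGB6 and PTK2. The 14-exon circle of ITGB6 (chr2:160101760-160200023) had 14, 6, 1 and 1 counts. The 7-exon circle of PTK2 (chr8:140818277-140879637) had 7, 10, 0 and 1. It shares its downstream end with the abundant 140818277 circle of the common upstream site, whose groups overlapped.

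The balance between circles of 1 gene was tested with the gene-level F test of edgeR's diffSpliceDGE. Of 6 members with at least 2 tested circles, 0 passed an adjusted p of 0.05, beside 122 of 3391 genes called (3.6%). At an unadjusted p under 0.05 there were also 0, beside 17.3% of all genes. PTK2, with 32 circles, had an adjusted p of 0.337, and ITGB8, with 18, had 0.377. ITGA2 had 0.447, ITGB1 0.730, ITGB6 0.853 and ITGA6 0.858. Without control 1, PTK2, ITGB8 and ITGB1 passed (43.8% of all genes did), and without control 2 these and ITGB6 and ITGA2 passed (43.5%). With a filter of 5 counts in each of 2 libraries, PTK2 passed (18.2% of all genes did). A Simes combination over circles called 0 members.

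The 4 genes with the most counts differed in where their recorded back splices lay. ITGB8 had 46 exon circles, and its upstream ends at 20363637 and 20367012 held 39.1% and 26.8% of their counts. The first end took 37.4% (Wilson 95% interval 29.8 to 45.7), 36.9% (30.2 to 44.3), 42.6% (34.0 to 51.7) and 40.1% (34.1 to 46.4) in the 4 libraries. Both knockdown values were above both controls by a few points, with intervals that overlapped. The second took 20.9%, 27.3%, 29.6% and 28.7%. In ITGB1, 103 exon circles used 70 upstream and 77 downstream recorded positions, and the leading upstream end, 32935558, held 24.8%. Only 26 of these 103 circles had the AG-GT motif without offset or further mark. In PTK2 there were 92 of 102, in ITGB8 22 of 46 and in ITGB6 22 of 38. How far the spread of positions in ITGB1 comes from imprecise junction placement was not tested. In ITGB6 the leading end was a downstream one, 160169212, with 52.0% of the counts against a median of 31.9% over the 1171 genes. It took 41.7%, 58.6%, 53.1% and 66.7% in the 4 libraries, which overlapped. ITGA6 likewise had a leading downstream end, 172498100, with 31.1%, near the median. Circles ending there had 16, 26, 6 and 9 of 80, 68, 15 and 20 exon counts.

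**Figure D4:**
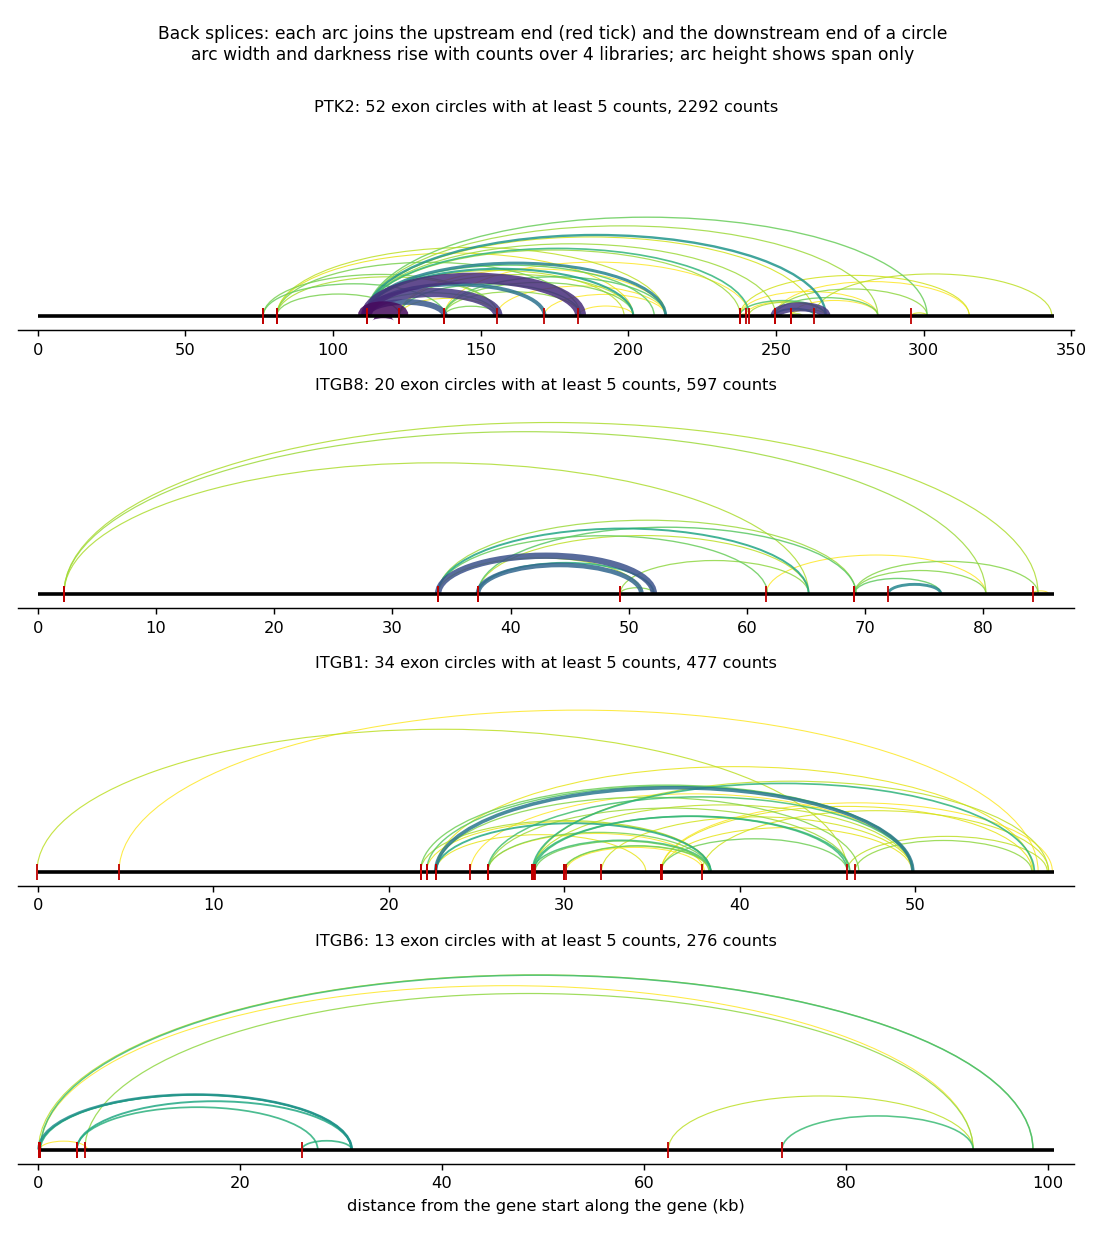
Exon circles holding 5 or more counts summed over the libraries in PTK2, ITGB8, ITGB1 and ITGB6, each drawn as an arc between its upstream end (red tick) and downstream end along the gene in kb from the gene start, wider and darker with more counts. PTK2 arcs gather at 1 upstream end holding 69.5% of exon counts and ITGB6 arcs at 1 downstream end holding 52.0%. ITGB1 arcs spread over many recorded positions. Of all ITGB1 exon-circle counts, 44.4% had the AG-GT motif without offset or further mark, against 98.8% in PTK2.

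The genes also differed in the splice motif and offsets recorded for their junctions. In PTK2, 98.8% of exon-circle counts had the AG-GT motif with both recorded offsets at 0 and no further mark. The share was 79.8% in ITGB8, 57.0% in ITGB6, 56.3% in ITGA6, 44.4% in ITGB1 and 8.97% in ITGA2. It was 79.8% over all members and 80.4% over the other circles with a named gene. The deposited table does not define the offsets or the asterisk that marks some motifs, so a low share is reported as recorded. At the junction of many circles the same bases stand at both ends and the join cannot be placed within them. The table gives this run as G for the leading circles of ITGB8 and ITGB1 and for the COL24A1 circle, and as AG for that of ITGB6.

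Laminins are heterotrimers of an alpha, a beta and a gamma chain that build the basement membrane. Their circles summed to 15.5, 9.88, 9.20 and 6.66 per 100000, and 0 of 4 tested genes passed (adjusted p 0.701 or above in edgeR). LAMC1, the common gamma chain, had 36, 19, 12 and 6 counts, with control 2 below knockdown 1 per 100000 (3.41 and 4.24). LAMB1, a beta chain, had 16, 15, 4 and 9 counts, with both knockdown libraries lower at 1.41 and 2.30 per 100000 against 3.39 and 2.70. Its leading circle, of 8 to 10 exons, had 4, 1, 1 and 1 counts. LAMA4, an alpha chain of vessel basement membranes, had 8, 17, 7 and 9 counts and overlapped. LAMA3, the alpha chain of epithelial laminin, had 3, 2, 3 and 2. The leading circle differed with the library. An intron circle of LAMC1 had 0, 0, 5 and 3 counts, one of LAMA4 had 0, 8, 0 and 0, and an exon circle of LAMA3 had 0, 0, 3 and 1.

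Collagen circles summed to 12.5, 7.37, 12.7 and 13.8 per 100000, and 0 of 5 tested genes passed. COL24A1, a fibrillar collagen (chr1:85729233-86156984, minus strand), had 8, 9, 12 and 18 counts, or 1.69, 1.62, 4.24 and 4.61 per 100000. The circle chr1:86124845-86146183 described above held 55.3% of these counts, so gene and circle are not separate results. For the gene sum, replicates were close and the knockdown libraries were above both controls. The log2 fold change of 1.72 ± 0.62 (SE) had an adjusted p of 0.293 in edgeR, and of 0.0173 to 0.921 over the alternatives. COL10A1, a network-forming collagen of growth cartilage, had 2, 2, 4 and 7 counts over 6 circles, all of intron type (log2 fold change 2.27 ± 1.24, SE). COL4A5, a basement membrane chain, had 32, 23, 8 and 20 counts spread over 26 circles and overlapped, and its leading circle had 4, 0, 0 and 3. COL5A2, a fibrillar chain, had 9, 2, 5 and 3, and COL4A3 had 5, 2, 1 and 2. The adjusted p of these 4 was 0.443 or above in edgeR.

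Cadherins had the fewest counts. CDH1, the E-cadherin of epithelial junctions (chr16:68737292-68835537, plus strand), had 13, 14, 9 and 6 counts, or 2.75, 2.52, 3.18 and 1.54 per 100000. The control values lay between those of the knockdowns, and the leading circle, of 4 exons and 844 nt, had 0, 5, 1 and 0 counts. The fitted log2 fold change was 0.12 ± 0.72 (SE) and turned to −0.18 with library-size scaling. CDH26 had 3, 2, 1 and 3 counts, CDH4 had 2 in control 1, and CDH13 had 1 in control 1. Differences for these genes were not detectable at this depth. The remaining 9 genes with counts were too sparse to compare. COL14A1 had 4 and 1 counts in the knockdown libraries and 0 in the controls, COL26A1 had 1 and 1 there, and COL4A4 had 2 in knockdown 2. The COL14A1 circle (chr8:120087860-120094280) lay wholly before the start of that gene at 120124454. COL4A1 had 1 and 2 counts in the controls and 0 in the knockdowns. LAMB4, LAMA5 and COL21A1 were seen in control 1 alone, LAMA2 in control 2 alone, and COL12A1 had 1, 1, 1 and 0 counts.

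Member circles resembled the rest of the table in size. The median exon circle was 1291 nt long with 8 exons, beside 1248 nt and 6 exons for the 109760 other exon circles with a named gene. More than 1 isoform was listed for 9.25% of the members' exon circles and 13.4% of the others. Of the 696 member circles, 406 (58.3%) were seen in 1 library and 68 (9.77%) in all 4, against 54.8% and 10.2% of the others. Circles seen in control 1 alone numbered 207 with 583 counts, or 33.4% of that library's member counts. Those in control 2 alone numbered 125, with 20.4%, and those in knockdown 1 or 2 alone 32 and 42, with 9.36% and 7.94%. Of the 10 intron circles with at least 10 counts, 5 were seen in 1 library, and they were picked out after their values were seen. Besides the ITGA2 circle, 1 of ITGB8 (chr7:20357059-20360157) had 15 counts, 1 of ITGB6 (chr2:160109913-160111350) had 11 and 1 of PTK2 (chr8:140844337-140847179) had 11, all in control 1 alone. Another of PTK2 (chr8:140830472-140954847) had 10 counts in control 2 alone. Without such circles the gene sums of exon circles gave log2 fold changes of −0.32 for ITGA2, 1.01 for ITGB8, −0.49 for ITGB6 and −0.22 for PTK2, so that of ITGA2 was nearer to 0.

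Circles naming several genes held 27.2% of member counts and 15.6% of the others', with ITGB8 and PTK2 as the main source.

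Other adhesion genes, outside the membership rule, were read from a list of 124 with integrin adaptors, cadherin partners, further matrix proteins and collagen-modifying enzymes. Circles were counted for 70, and 47 were tested. In edgeR 0 of 47 passed an adjusted p of 0.05, beside 0.446% of all host genes. At an unadjusted p under 0.05 there were 1 higher, beside 7.61% of all, and 4 lower, beside 6.14%. Fitted log2 fold changes lay under 0 in 39 of 47, beside 59.5% of all host genes, with a median of −0.73 against −0.26 over all. Per group, 18 of 22 adaptors, 13 of 16 junction genes and 4 of 4 other matrix proteins lay under 0. Some of the 47 reached the count filter through control 1 alone, which fixed their sign in advance. LOXL2, NECTIN4 and PTK2B had 15, 11 and 10 counts there and 0 in the other libraries. The numbers under 0 are therefore a description and not a result about these genes. Without control 1, 8 of 47 were called, beside 20% of all host genes.

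Of the 5 genes at an unadjusted p under 0.05, 4 are described here, and they were named after their values were seen. PLOD2, a lysyl hydroxylase that prepares collagen for cross-linking, had 31, 59, 68 and 113 counts, or 6.56, 10.6, 24.1 and 28.9 per 100000. Its log2 fold change was 1.91 ± 0.42 (SE, adjusted p 0.121 in edgeR). CTNND1, the p120 catenin that holds cadherins at the membrane, had 101, 25, 3 and 5 counts, with a wide gap between the controls. CRKL, an adaptor of integrin signalling, had 194, 244, 38 and 76, and MAGI1, a scaffold of epithelial junctions, had 160, 102, 27 and 30. ITGAV, the alpha V partner of ITGB6 and ITGB8, had 116, 140, 41 and 70 counts and a log2 fold change of −0.30 ± 0.34 (SE).

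The epithelial origin of the line could be checked in part. EPCAM had 35, 38, 15 and 20 counts and EGFR 115, 52, 12 and 21, while KRT5 had 2 in all and CDH3, KRT14 and KRT17 had 0. Among fibroblast markers 2 of 9 had counts, FN1 with 5 and VIM with 3 in all, and COL1A1, COL1A2 and COL3A1 were at 0. The 4 endothelial and 4 immune markers were at 0. A marker without circles says nothing about its messenger RNA. Summed with CDH1, the epithelial markers had 34.9, 18.7, 12.7 and 12.0 counts per 100000. This sum lay lower in the knockdown libraries, as that of the integrin alpha chains did, and its part in those values was not tested. EGFR held 115, 52, 12 and 21 of its 165, 104, 36 and 47 counts. CDH1 overlapped between groups, at 2.75, 2.52, 3.18 and 1.54 per 100000.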

How the data were processed

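Circular RNA was measured in 4 nanopore libraries, 2 per arm. The authors deposited unnormalised counts, with 1 row per back splice, called with CIRI-long per the file's columns. The build is GRCh38.p14 per the submitters' processing notes, which also name DESeq2. The aligner, base caller, annotation and filters are not given in the sources used here. Of the member circles with counts, 99.4% lay within 1000 nt of their gene in the RefSeq table of that build. The others reached beyond that margin, 1 circle each of CDH26, COL10A1, COL14A1 and COL4A5, with 3, 4, 5 and 2 counts. A deposited table of scaled values was not used, and values per 100000 were computed from the counts.

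Samples were grouped by their titles. Groups share replicate numbers, but same-numbered libraries deviated together at r = 0.0706 over 4944 circles, so the numbers were not taken to pair them. Nothing beyond the design text says how far replicates were separate, so the p-values measure the spread between these libraries.

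Counts of every non-antisense circle were summed for each gene it names. Rows naming no gene held 2.08% of all counts. Genes and circles holding 10 or more counts in all were tested with edgeR 4.0.16 (TMM, glmQLFit with its default settings, glmQLFTest, diffSpliceDGE) in R 4.3.3, with Benjamini-Hochberg adjustment over all features tested and a threshold of 0.05. Standard errors were derived from the F statistic. DESeq2 1.42.0 and limma 3.58.1 served as alternatives, with other scalings, filters, circle types and single libraries left out. The tests were tested on simulated data. With the spread estimated from these libraries, the host gene test recovered 24% of 4-fold and 55% of 8-fold changes. The circle test recovered 0% and 15%. With a low spread the shares were 70% and 84% for genes, and 41% and 67% for circles. The test of circle use was tried at a low spread alone and only on circles with at least 40 counts (1159 genes). There it recovered 100% of 8-fold changes. The reported test used the filter of 10 counts over 3391 genes, so this share does not carry over to it. At 40 counts 2 members could be tested, against 6 in the reported test. A change that was not called is thus not shown to be absent.

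Named genes were the 5 of each family with the most counts, and any past the threshold. Named circles were the leading circle of each, the 10 most abundant, and the 5 higher and 5 lower with the smallest p. Members, lists and rules were chosen with earlier results of these data known. No genome was used, so no circle sequence is shown. Values of 1 member gene and 1 gene of the adhesion list are not reported here.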

Additional observations from a re-analysis of the deposited data

How the results depend on the processing

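In the test of host genes, 0 members were called under each alternative that kept all 4 libraries, with 14 to 34 members tested. DESeq2 gave no adjusted p for some of these, COL24A1 and ITGB5 among them, and so could not call them. When a library was left out, 0 to 6 were called, with 4 without control 1 and 6 without control 2. Leaving out a library gave 0 to 21 called circles and 0 to 5 genes with unequal circle use. With at least 5 counts in each of 2 libraries, 2 circles and 1 gene were called. With the replicate block, 0 host genes, 2 circles (of COL24A1 and ITGA2, beside 7.51% of all circles) and 2 of 6 genes with tested circle use (ITGB8 and ITGA2, beside 20.3% of all genes) were called. Over all host genes, edgeR's 38 calls became 227 with the replicate block, 187 with DESeq2, 403 with voom, 402 unfiltered, 117 and 101 with the stricter filters, 86 with circles of 1 gene, 79 with exon circles and 0 with the newer dispersion method. Over all circles, 0 became 1620, 1052, 296, 471, 1422 and 562 in that order, and 302 with exon circles. The summed member level, knockdown minus control, was −94.7 per 100000. It was −75.9 for exon circles, −41.1 without PTK2, and −117 and −72.5 within replicate numbers 1 and 2, an alternative chosen after seeing the data. Leaving out a library gave −110 to −79.7. Fitted log2 fold changes changed sign for CDH1 (−0.18 with library-size scaling, −0.16 with exon circles, −0.42 to 0.55 when a library is left out), COL4A3 (0.02 with voom, −0.70 to 0.47) and COL4A5 (0.21 with exon circles, −0.64 to 0.28). Leaving out a library gave −0.16 to 0.99 for LAMA4, −1.45 to 0.01 for ITGA2, −0.46 to 0.16 for PTK2 and −0.15 to 1.85 for COL5A2. For the PTK2 circles closing at 140818277 and 140830472 it gave −0.39 to 0.06 and −0.73 to 0.05. The cause was not tested. In the other comparisons of single genes and circles with an alternative, the sign did not change. Counts were enough to test 18 of 36 member genes and 86 of 696 circles.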
